A study of Danio rerio with 8 samples.

Results

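Myelomonocytes, the granulocyte and monocyte lineage cells that adult zebrafish make in the kidney, were compared between fish that lacked miR-142-3p and wild-type fish. The comparison rests on 4 of the 8 arrays of the series, chosen by their labels: 2 arrays of knockout and 2 arrays of wild-type myelomonocytes. The knockout is labelled as a miR-142-3p double knockout, written 142ab-/- in the sample titles, and both genotypes were sampled at 60 days post fertilization. Each array came from cells sorted from 4 kidneys, so an array is a pool of animals, and the labels call the 2 samples of a group independent repeats. The other 4 arrays hold whole kidney marrow without erythrocytes from the same genotypes and are used here for the shared estimate of error and for 1 comparison at the end. The knockout is of the whole animal, as far as the labels say. The array annotation used here names no probe set for mir142a or mir142b, so the loss of these genes could not be checked on the arrays.

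MicroRNAs are short RNAs that guide Argonaute proteins to messenger RNAs with a matching site and lower their stability or translation. miR-142 is made mainly in blood cells of every lineage, and in mammals its loss alters myeloid, lymphoid and red cell development. Zebrafish carry a pair of miR-142 genes, mir142a and mir142b, and fish without miR-142-3p have been studied for neutrophil maturation and interferon gamma signalling. A transcript can differ in such cells as a direct target, as a later effect, or because the sort held other cells, and expression arrays do not separate these.

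Of 75212 probe sets, 20806 were annotated with exactly 1 gene symbol, and they covered 19260 genes. Levels are log2 values of a gene's brightest probe set, and 13774 genes with a mean of at least 5.52 over the 8 arrays were tested. The other 5486 were set aside as dim. The 2 wild-type arrays correlated at r = 0.992 across these genes and the 2 knockout arrays at 0.988, against 0.967 to 0.969 between genotypes. These correlations run across genes, which are no independent replicates.

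The sorted cells carried the granulocyte markers that their label implies. mpx, the neutrophil myeloperoxidase, measured 13.05 and 13.09 in the wild-type arrays and 13.12 and 13.09 in the knockout arrays. lyz, a lysozyme of granulocytes, measured 13.28 and 13.30 against 13.33 and 13.33, and cpa5, a carboxypeptidase known from mast cells, 13.24 and 13.17 against 13.29 and 13.31. All 3 genes were far above the level of dim genes on every array, and the genotypes lay close together. They also lay near the highest value of any probe set on these arrays, 13.68 to 13.70. Whether differences are compressed at that end of the scale was not tested. Of 9 eosinophil and mast cell markers tested, limma called 3 higher and 0 lower at an adjusted p under 0.05. That is 33.3%, against 12.4% over all genes. Their summed linear level was 21388 and 20876 in wild type and 22402 and 21667 in the knockout. Over the 6 members not called it was 20513 and 19962 against 20832 and 20167, so the genotypes overlapped. Such a sum, here and below, leaves out members picked for their difference in these same data. It therefore cannot decide whether a cell type differed. The macrophage genes mpeg1.1, a perforin, and csf1ra, the receptor for colony stimulating factor 1, were at 9.55 and 9.87 and at 10.23 and 10.20 in wild type. In the knockout they were at 9.31 and 8.57 and at 9.92 and 9.43, and neither was called (limma, adjusted p = 0.0597 and 0.0772). Because these are bulk samples, fewer cells of a type and less RNA per cell cannot be told apart in any result here.

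Knockout and wild-type myelomonocytes differed at 1703 of 13774 genes, or 12.4%, at an adjusted p under 0.05. Of these, 944 genes (6.85% of those tested) were higher and 759 (5.51%) lower in the knockout. A difference of at least 2-fold was reached by 231 higher and 146 lower genes, and one of at least 4-fold by 32 and 21. The median change over all tested genes was 0.01 on the log2 scale, with a median standard error (SE) of 0.12. The smallest change called was 0.33. Of the called genes 131 had more than 1 probe set, counting dim ones, and for 33 of these the probe sets changed in opposite directions. When each of the 4 arrays was left out in turn, 488 of the 1703 genes (28.7%) kept their call every time. A gene described below as having risen or fallen is one of those 488 unless its own paragraph gives the adjusted p it had without a named array. Without wild-type replicate 1 or replicate 2 the number of calls was 722 or 719. Counts of list members that rose or fell are of all called members, whether or not the call was kept. These counts moved with single arrays in the same way, and the number kept is given beside several lists.

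**Figure D1:**
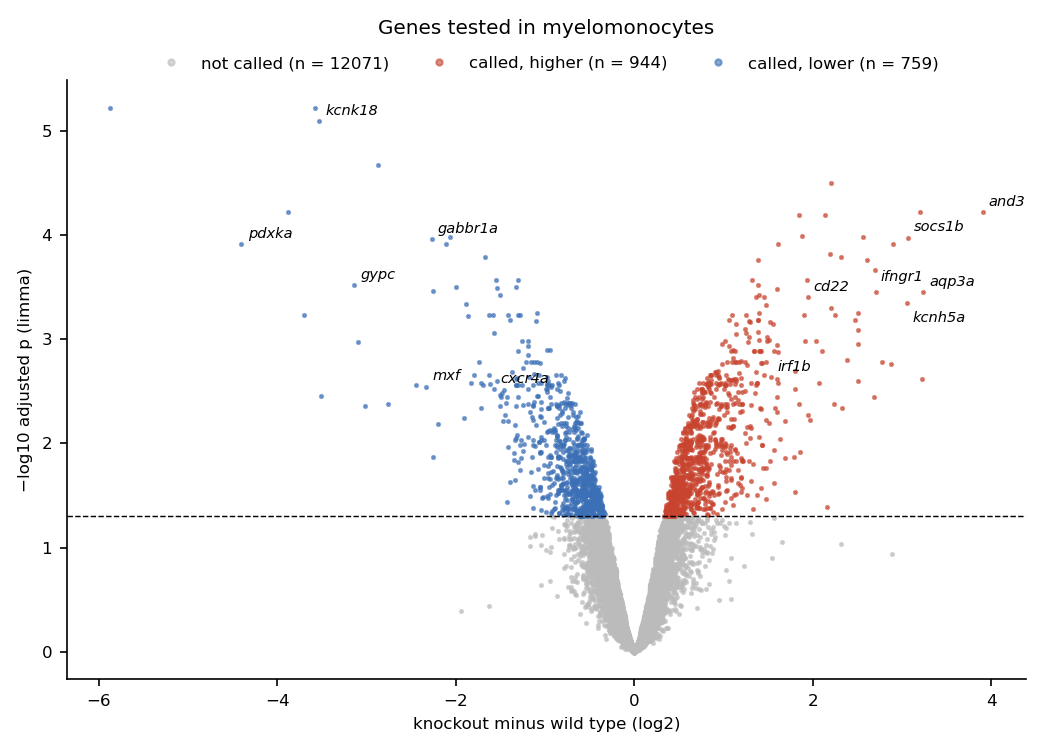
Change in myelomonocytes against the adjusted p of limma for the 13774 genes tested. The horizontal axis is knockout minus wild type on the log2 scale, the vertical axis is −log10 of the adjusted p, each point is a gene, and the dashed line is an adjusted p of 0.05. Above the line lie 944 higher and 759 lower genes. Of these, 231 higher and 146 lower genes changed at least 2-fold, and 32 and 21 at least 4-fold.

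Among genes with more than a clone name, the 30 largest rises ran from and3 down to cd22. and3, an actinodin known from the fin fold skeleton, measured 5.35 and 4.82 in wild type and 9.05 and 8.93 in the knockout. aqp3a, a channel for water and glycerol, measured 6.16 and 6.54 against 9.98 and 9.17. kcnh5a, a voltage-gated potassium channel, measured 5.84 and 5.97 against 8.90 and 9.01. All 3 were low on both wild-type arrays and high on both knockout arrays, with changes of 3.90 ± 0.19, 3.23 ± 0.24 and 3.05 ± 0.24 (SE; adjusted p = 6.06e-05, 0.000356 and 0.000449). sh3bp4, an endocytic adaptor, rose by 2.71 ± 0.20 and fkbp1ab, a peptidyl-prolyl isomerase that binds the drug FK506, by 2.50 ± 0.25. casp23, a caspase-family gene, measured 7.13 and 7.35 in wild type and 9.53 and 9.55 in the knockout, a rise of 2.31 ± 0.15 (adjusted p = 0.000163). ero1a, an oxidase that forms disulfide bonds in the endoplasmic reticulum, measured 8.22 and 8.09 against 10.36 and 10.03. For both genes the arrays of a genotype lay close to each other and the genotypes were far apart.

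Several other genes in this upper group act in small-molecule synthesis or outside the cell. ddc, the decarboxylase that makes dopamine and serotonin, and gch2, an enzyme of pteridine synthesis, each rose by 2.50 (SE 0.30 and 0.21). p4ha3, a collagen prolyl hydroxylase, rose by 2.38 ± 0.25, ADAMTSL5, a secreted ADAMTS-like protein, by 2.19 ± 0.14, and ndr2, a Nodal-related growth factor, by 2.07 ± 0.25. anxa2a, a calcium-dependent membrane-binding annexin, measured 8.57 and 8.23 in wild type and 10.52 and 10.48 in the knockout, a rise of 2.1 ± 0.21 (adjusted p = 0.0013). ubald1a rose by 2.77 ± 0.30 by its brightest probe set, but its other probe set changed by -0.69. slc13a1, a renal sulfate transporter, was the least certain of the 30. It measured 7.25 and 8.37 in wild type and 9.67 and 10.27 in the knockout (2.16 ± 0.55, adjusted p = 0.0404). Its adjusted p was 0.189 without wild-type replicate 1, 0.0753 without knockout replicate 1 and 0.15 without knockout replicate 2.

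The 30 largest falls ran from pdxka to olmf4l1. pdxka, the kinase that activates vitamin B6, measured 9.82 and 10.22 in wild type and 5.39 and 5.83 in the knockout, a change of -4.40 ± 0.26 (adjusted p = 0.000122). kcnk18, a potassium leak channel, measured 7.96 and 8.06 against 4.43 and 4.53, a change of -3.53 ± 0.12 (adjusted p = 8.14e-06). Both genes went from a clear level on the wild-type arrays to near or below the dim level on the knockout arrays. gabbr1a, a subunit of the GABA-B receptor, measured 8.58 and 8.28 in wild type and 6.15 and 6.16 in the knockout. bmp1a, a protease that matures collagens, measured 8.71 and 8.96 against 6.64 and 6.82, and brms1la, a subunit of a histone deacetylase complex, 8.83 and 8.59 against 6.60 and 6.67. The 3 falls were -2.27 ± 0.13, -2.11 ± 0.13 and -2.07 ± 0.12, with adjusted p of 0.000109, 0.000122 and 0.000104, and the knockout arrays stayed above the dim level.

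The other large falls included the following genes. irs2a, an adaptor of the insulin receptor, measured 10.40 and 10.61 in wild type and 8.90 and 8.85 in the knockout (-1.63 ± 0.14, adjusted p = 0.000583). chka, a choline kinase of phosphatidylcholine synthesis, measured 11.70 and 11.62 against 10.00 and 10.29 (-1.51 ± 0.12, adjusted p = 0.000374). Both were well above the dim level on all 4 arrays, and no knockout value came within 1 log2 unit of a wild-type value. kremen1, a receptor for the Wnt inhibitor Dickkopf, changed by -1.55 ± 0.11, pea15, a death effector domain protein that binds ERK, by -1.54 ± 0.18, and unc119a1, a carrier of myristoylated proteins, by -2.0 ± 0.15. Beside them, saxo2 changed by -1.54 ± 0.11 and akip1 by -1.74 ± 0.19. aldh2.2, an aldehyde dehydrogenase, measured 8.08 and 8.05 against 6.41 and 5.20, and its adjusted p of 0.0135 became 0.0632 without wild-type replicate 1 and 0.0628 without wild-type replicate 2.

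**Figure D2:**
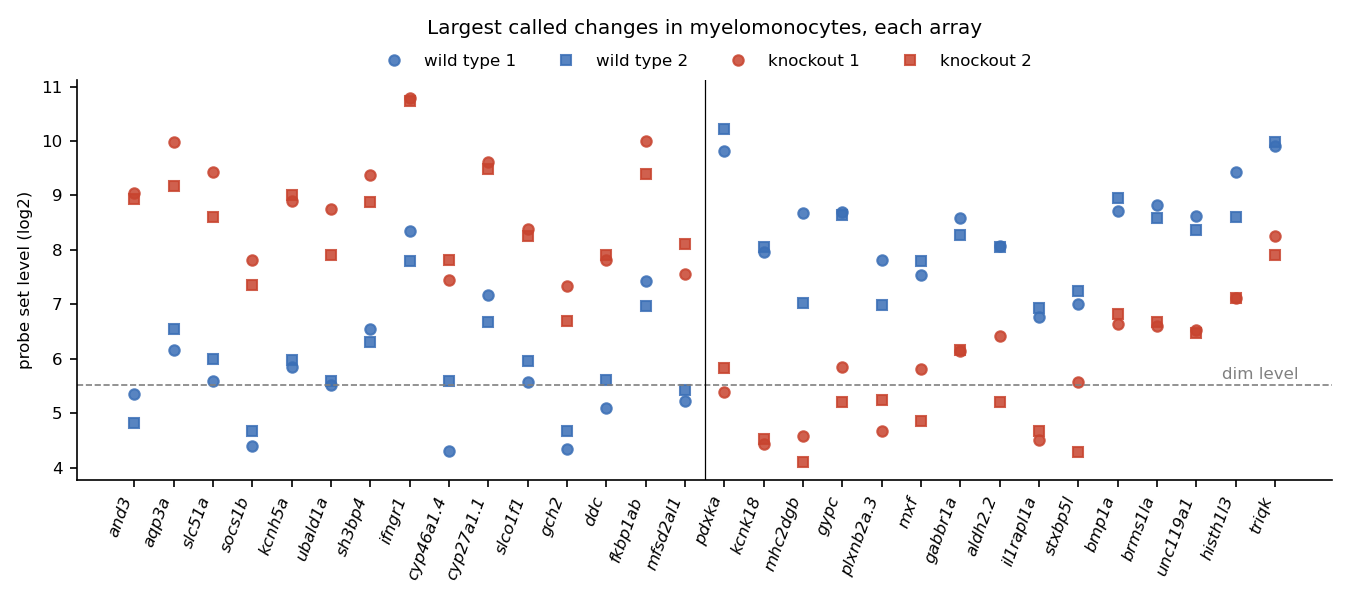
Level of the 15 largest rises and 15 largest falls among called genes with more than a clone name, on each of the 4 myelomonocyte arrays. The vertical axis is the log2 level of the probe set, circles are replicate 1, squares are replicate 2, and the dashed line is the dim level of 5.52. By the rule that chose them, both knockout arrays lie beyond both wild-type arrays for every gene drawn, and many of the lower groups lie near or below the dashed line.

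The 944 higher genes included 50 whose wild-type mean lay below the dim level of 5.52, and the 759 lower genes included 59 whose knockout mean lay below it. For such genes background light may set the lower value and compress the change. That was not tested, and the dim level is a percentile, not a measured background. Genes of this kind included and3, socs1b, gch2, ddc, p4ha3, ADAMTSL5, parp14rs4 and cyp46a1.4 among the rises. Among the falls they included kcnk18, plxnb2a.3, mxf, il1rapl1a, illr3 and hspb1. The gene lists described next were described by counts and medians. Their medians stand against the median of 0.01 over all genes, and their counts against the 6.85% higher and 5.51% lower over all genes.

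Interferon gamma acts through a receptor of paired chains and Janus kinases, switches on interferon regulatory factors, and is held back by SOCS proteins. Of 11 measured genes of its ligand, receptor, kinases and STAT factors, 2 rose and 0 fell (18.2%, median 0.07). ifngr1, a receptor chain, measured 8.34 and 7.79 in wild type and 10.78 and 10.73 in the knockout, a rise of 2.69 ± 0.18 (adjusted p = 0.000218). Its knockout values were close together and far above both wild-type values. The kinase gene jak2b had the other call at 0.41 ± 0.10, with an adjusted p of 0.189, 0.0935 and 0.134 without wild-type replicate 1, wild-type replicate 2 and knockout replicate 1. ifng1, the ligand itself, was at 0.16 and jak1, jak2a, tyk2 and stat3 were at -0.19, -0.10, -0.38 and 0.07, none of them called. Among 23 SOCS and PIAS genes 3 rose and 1 fell (median 0.09), with 2 of the rises kept without every single array. socs1b measured 4.39 and 4.67 against 7.82 and 7.36 and its paralogue socs1a 9.07 and 9.19 against 9.74 and 9.83. The rises were 3.06 ± 0.17 and 0.65 ± 0.10 (adjusted p = 0.000106 and 0.00529), and the genotypes did not overlap for either, but a second, dimmer probe set of socs1b changed by -0.07.

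Downstream of the receptor, 2 of 11 interferon regulatory factors rose and 0 fell (18.2%, median -0.06). irf1b measured 10.03 and 9.74 in wild type and 11.65 and 11.18 in the knockout, a rise of 1.53 ± 0.18. irf9 measured 7.60 and 7.39 against 8.62 and 8.58, a rise of 1.11 ± 0.11. The other 9 factors were not called and lay between -0.57 and 0.49, among them irf8, a factor of macrophage fate, at -0.39 and irf7 at -0.24. Of 7 GTPases of the interferon response tested 2 were called higher and 2 lower (57.1%, median 0.17), and 7 more were dim. The higher pair kept 1 call without every single array and the lower pair 2. gbp1, a guanylate-binding protein, rose by 0.71 ± 0.11 (adjusted p = 0.00672), while the Mx antiviral genes mxf and mxd changed by -2.33 ± 0.29 and -1.25 ± 0.18 (adjusted p = 0.00286 and 0.00429). mxf measured 7.53 and 7.80 in wild type and 5.82 and 4.86 in the knockout, and mxd 7.85 and 7.65 against 6.66 and 6.34.

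Peptide loading onto MHC class I molecules, which shows cell contents to T cells, depends on the immunoproteasome, the TAP transporter and trimming peptidases. Of 24 genes of this pathway 8 rose and 0 fell (33.3%, median 0.32), and 6 of the rises were kept without every single array. Besides both TAP chains they were the loading editor gene tapbpl at 1.4, the peptidase gene erap1b, the proteasome activator gene psme2 and the immunoproteasome subunit gene psmb10. erap1b measured 7.22 and 7.24 in wild type and 8.24 and 7.91 in the knockout, and psmb10 8.76 and 8.81 against 9.51 and 9.40. Their rises were 0.84 ± 0.13 and 0.67 ± 0.10 (adjusted p = 0.00682 and 0.00631). b2m, the light chain of every class I molecule, changed by 0.14 ± 0.13, and the genotypes overlapped. MHC genes and the fish TRIM genes that follow have near-identical copies that may share probes.

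Fish carry a large family of TRIM ubiquitin ligases, the finTRIM and bloodthirsty genes, many of which respond to viruses. Of 69 on the array 40 were dim, and of the 29 tested 7 rose and 0 fell (24.1%, median 0.29). ftr63 measured 5.67 and 5.71 in wild type and 6.90 and 7.06 in the knockout, a rise of 1.29 ± 0.20 (adjusted p = 0.00679), and ftr02 rose by 0.79 ± 0.11. These 2 kept their call without every single array, and 3 to 5 members rose when 1 array was left out. The change in parp14rs4, related to mammalian PARP14, an interferon-induced ADP-ribosyltransferase, was 2.2 ± 0.18, from 5.29 and 5.42 to 7.81 and 7.30. mov10b.2, related to an RNA helicase that in mammals binds Argonaute and restrains viruses, rose by 1.38 ± 0.12, from 8.38 and 8.62 to 9.98 and 9.78.

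Receptors for danger signals and cytokines moved in both directions. Of 23 Toll-like and cytosolic sensor genes 3 rose and 2 fell (21.7%). Their median of 0.01 became -0.03 after centring on the median of the genes tested. tlr21, a receptor for bacterial DNA in birds and fish, measured 7.64 and 7.87 in wild type and 8.69 and 8.95 in the knockout (1.06 ± 0.13, adjusted p = 0.00246). Of 53 interleukin and receptor genes 2 rose and 7 fell (17%, median -0.06). il10ra, a receptor chain for the anti-inflammatory interleukin 10, measured 9.23 and 9.49 against 8.35 and 8.14 (-1.12 ± 0.15, adjusted p = 0.00398), and il1rapl1a, a receptor of the interleukin 1 family, 6.76 and 6.93 against 4.51 and 4.68 (-2.25 ± 0.17). These were the 2 of the 9 calls in that list kept without every single array. Of 37 chemokine and receptor genes 2 rose and 5 fell (18.9%, median -0.07). cxcr4a, a paralogue of the receptor that holds leukocytes in the marrow, measured 7.46 and 7.55 against 5.78 and 6.08 (-1.57 ± 0.20, adjusted p = 0.003). Its paralogue cxcr4b measured 11.36 and 11.28 against 11.76 and 11.59, a change of 0.35 ± 0.10 that was not called (adjusted p = 0.0561).

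Among 17 T and NK cell markers 3 were called higher and 1 lower (23.5%, median 0.17), and among 13 B cell markers 1 was higher and 1 lower (15.4%, median 0.02, or -0.02 after centring on the genes tested). cd22, an inhibitory lectin of B cells, measured 7.94 and 8.26 in wild type and 10.18 and 9.89 in the knockout (1.94 ± 0.15). lck, the kinase of the T cell receptor, measured 7.35 and 6.94 against 9.21 and 8.68 (1.80 ± 0.20), and sh2d1ab, an adaptor of SLAM receptors, 7.05 and 6.98 against 8.27 and 8.02 (1.13 ± 0.12). All 3 were higher on both knockout arrays, with adjusted p of 0.000393, 0.00201 and 0.0013. Among other markers of those lineages, the B cell genes cd79a and pax5 changed by -0.25 and 0.03, and neither was called. The T cell genes zap70 and cd4-1 changed by -0.35 and -0.34 and were not called either. Thus lck, itself a T cell marker, was called higher while zap70 and cd4-1 were not. The summed linear level of the 17 T and NK cell markers was 4307 and 4095 in wild type and 5070 and 4390 in the knockout, and that of the 13 B cell markers 6511 and 5794 against 7225 and 6642. These sums include cd22, lck and sh2d1ab. Over the members not called, the sum of 13 T and NK cell markers was 1144 and 1148 against 1398 and 1184, higher on both knockout arrays. That of 11 B cell markers was 6214 and 5425 against 6026 and 5659, so the genotypes overlapped. The part of such cells in the rises of the 3 genes was not tested.

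Lectin genes were called in both directions. The galectin 9-like genes lgals9l1 and lgals9l3, of a family that binds galactosides on cell surfaces, rose by 1.17 ± 0.13 and 0.87 ± 0.13, and lgals3bp.1 by 1.95 ± 0.29. lgals9l1 measured 9.71 and 9.56 in wild type and 10.88 and 10.73 in the knockout. The C-type lectin genes illr1 and illr3 fell by 1.04 and 1.69, illr3 from 6.97 and 6.61 to 4.84 and 5.37. Over the whole list of 23 lectin genes 4 rose and 3 fell (30.4%, median -0.09). s100z, a calcium-binding S100 protein, measured 10.24 and 10.13 against 11.18 and 11.20 (1.01 ± 0.10, adjusted p = 0.00105). Of 10 complement genes tested 0 rose and 3 fell (30%, median -0.37), while 17 were dim. cfd, the serine protease that starts the alternative pathway, measured 10.76 and 10.67 against 10.14 and 10.03 (-0.63 ± 0.09, adjusted p = 0.00543). The other 2, c1qb and c3ar1, had an adjusted p of 0.183 and 0.138 without wild-type replicate 1, 0.0829 and 0.0853 without wild-type replicate 2 and 0.155 and 0.119 without knockout replicate 2. acod1, which makes itaconate in activated macrophages, measured 9.38 and 9.12 against 7.66 and 7.68 (-1.58 ± 0.13).

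Of 29 cytochrome P450 genes tested 7 were called higher and 1 lower (27.6% called, median 0.22), of which 3 and 0 kept their call without every single array, and 46 more on the array were dim. cyp27a1.1, which in mammals hydroxylates the side chain of cholesterol, measured 7.18 and 6.68 in wild type and 9.61 and 9.48 in the knockout (2.61 ± 0.17, adjusted p = 0.000175). Its relative cyp27a3 measured 5.80 and 6.33 against 7.15 and 7.34 (1.18 ± 0.17, adjusted p = 0.00495). In the brain-type family, cyp46a1.4 rose by 2.68 ± 0.36 from 4.30 and 5.59 to 7.44 and 7.82, whereas cyp46a1.2 measured 8.21 and 8.19 against 7.45 and 7.21 (-0.87 ± 0.15, adjusted p = 0.0109). cyp46a1.2 had an adjusted p of 0.0579, 0.0551 and 0.0508 without wild-type replicate 1, wild-type replicate 2 and knockout replicate 2. The wild-type arrays of cyp46a1.4 differed from each other more than those of the other 3 genes.

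Of 304 solute carrier genes 42 rose and 20 fell (20.4% called, median 0.05), and 11 rises and 4 falls were kept without every single array. slc51a, a subunit of an exporter of bile acids and steroids, measured 5.60 and 6.0 in wild type and 9.43 and 8.61 in the knockout (3.22 ± 0.38, adjusted p = 0.0024). The organic anion carriers slco1f1 and slco1f4 measured 5.57 and 5.95 against 8.38 and 8.25 and 7.33 and 7.33 against 8.59 and 8.84 (2.56 ± 0.14 and 1.39 ± 0.13). slc35d1b, a nucleotide sugar carrier of the endoplasmic reticulum, rose by 1.49 ± 0.14, and slc40a1, the iron exporter ferroportin, by 0.76. Falls included slc43a3a, a purine carrier in mammals, from 10.02 and 9.99 to 8.97 and 8.88 (-1.08 ± 0.13), and abcg2a, a multidrug exporter of the ABC family, from 8.73 and 8.74 to 7.59 and 7.53 (-1.18 ± 0.14). The number of carriers that rose depended on single arrays, from 16 without wild-type replicate 1 to 49 without knockout replicate 1. Several of the rises, such as slc6a18 at 1.35 ± 0.18, slc5a12 at 1.31 ± 0.21 and slc34a1b at 1.11 ± 0.17, are carriers of the kidney tubule and are taken up again below with the kidney markers.

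Of 35 genes of fatty acid oxidation and lipid droplets 11 rose and 0 fell (31.4%, median 0.23). cpt1ab, which admits long-chain fatty acids to mitochondria, measured 7.51 and 7.58 in wild type and 8.50 and 8.48 in the knockout (0.95 ± 0.11, adjusted p = 0.00238). It was the 1 member kept without every single array, and the number that rose was 1 without wild-type replicate 1, 5 without wild-type replicate 2, 6 without knockout replicate 1 and 7 without knockout replicate 2. The subunits of the trifunctional protein that carries out the later steps, hadhaa and hadhab, were at 0.97 and 0.45. hadhaa had an adjusted p of 0.0731 and 0.0539 without wild-type and knockout replicate 1. hadhab had 0.0828 and 0.0969 without wild-type replicates 1 and 2 and 0.0653 without knockout replicate 2. In contrast, 1 of 28 genes of the citric acid cycle rose and 0 fell (median 0.10).

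Amino acid and redox enzymes changed in opposite directions within each list. Of 41 amino acid enzymes 7 rose and 5 fell (29.3% called, median 0.04), of which 4 and 4 were kept without every single array. mat1a, which makes S-adenosylmethionine, measured 5.69 and 5.86 in wild type and 7.25 and 7.49 in the knockout (1.6 ± 0.16, adjusted p = 0.00113). ass1, which forms argininosuccinate, measured 6.56 and 6.72 against 7.52 and 7.83, and arg1, which splits arginine, 6.48 and 5.99 against 7.15 and 7.29. Both of these arginine enzymes were higher on each knockout array (1.03 ± 0.13 and 0.98 ± 0.17). prodha, which starts proline breakdown, fell from 9.82 and 9.82 to 8.81 and 8.97 (-0.93 ± 0.12, adjusted p = 0.00288). Among 36 antioxidant genes 2 rose and 5 fell (19.4%, median 0.03, or -0.01 after centring on the genes tested). hmox1a, the haem oxygenase, measured 9.73 and 9.95 against 8.56 and 8.49 (-1.31 ± 0.15) and sod1, the cytosolic superoxide dismutase, 7.69 and 7.68 against 6.91 and 7.13 (-0.66 ± 0.11). nqo1, a quinone reductase, went the other way, from 7.09 and 6.94 to 8.0 and 7.94 (0.95 ± 0.11).

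Lysosomal genes were likewise mixed, with 5 of 29 higher and 5 lower (34.5% called). Their median was -0.02 and became 0.02 after quantile normalization. asah1b, an acid ceramidase, measured 9.92 and 10.13 in wild type and 11.11 and 11.02 in the knockout (1.04 ± 0.15, adjusted p = 0.00448), and grna.2, a granulin, rose by 2.33 ± 0.33. None of the 5 falls was kept without every single array. ctsk, a collagen-degrading cathepsin, fell from 8.50 and 8.43 to 7.71 and 7.67 (-0.77 ± 0.12, adjusted p = 0.00644). serpinb1, named for the mammalian inhibitor of neutrophil elastase, rose by 1.84 ± 0.26 from 5.35 and 4.75 to 6.65 and 7.12. Among nucleotide synthesis genes dck, the kinase that salvages deoxycytidine, fell from 9.05 and 9.09 to 8.02 and 8.13 (-0.99 ± 0.13).

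Transcription factor genes were called in both directions. The retinoic acid receptor-related genes roraa and rorab, which in mammals drive clock genes, both rose, from 6.58 and 7.07 to 7.89 and 7.84 and from 7.01 and 7.15 to 7.97 and 7.90 (1.04 ± 0.15 and 0.85 ± 0.10). They were the 2 rises among 42 clock genes, of which 2 others fell (9.52% called, median -0.17). klf11b, a Krüppel-like repressor, measured 9.48 and 9.56 in wild type and 10.86 and 10.99 in the knockout (1.41 ± 0.14), while its paralogue klf11a was at 0.47 and had an adjusted p of 0.14, 0.114 and 0.117 without wild-type replicate 1, wild-type replicate 2 and knockout replicate 1. tcf7l2, the nuclear partner of beta-catenin, measured 6.69 and 6.70 against 8.46 and 8.04 (1.56 ± 0.16, adjusted p = 0.0013). Falls were measured for smad3b, a transducer of TGF-beta signals, from 8.18 and 7.69 to 6.63 and 6.50 (-1.37 ± 0.15), and for sp2, from 9.19 and 9.22 to 8.14 and 7.33 (-1.47 ± 0.22). her9, a Hairy-related repressor, fell from 7.71 and 7.73 to 6.64 and 6.29 (-1.25 ± 0.14), and jdp2a, an AP-1 family repressor, by 0.98. tgfbi, a matrix protein named for its induction by TGF-beta, rose from 11.21 and 11.35 to 12.46 and 12.23 (1.07 ± 0.13), so smad3b and tgfbi moved in opposite directions. Of the chromatin modifiers 7 of 143 were called higher and 4 lower (7.69% called), of which 1 and 1 were kept without every single array, including kdm6ba, a histone H3 lysine demethylase, at -1.13 ± 0.16.

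Of 17 dual specificity phosphatases 2 were called higher and 1 lower (17.6%, median 0.15). dusp10, a phosphatase of stress kinases, rose from 5.30 and 5.69 to 6.90 and 6.88 (1.4 ± 0.13), and dusp8a, of the same family, fell from 9.09 and 9.11 to 8.27 and 8.37 (-0.78 ± 0.09). Of 40 MAP kinases 1 rose and 0 fell, and of 31 tyrosine phosphatases 1 rose and 0 fell. waslb, an actin-nucleation promoter related to WASP and reported as a target of miR-142-3p, measured 6.68 and 6.91 against 7.49 and 7.37 (0.64 ± 0.11), with an adjusted p of 0.0113 that became 0.0718 without wild-type replicate 1. wipf2a, which binds WASP proteins, rose by 0.69 ± 0.11 (adjusted p = 0.00607). adcy8, an adenylyl cyclase, rose by 0.76 ± 0.11 and creb1b, a factor that responds to cyclic AMP, fell by 0.70.

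At the cell surface, integrin, tetraspanin and ion channel genes were called in both directions. itgb1b, an integrin beta 1 chain, rose from 10.82 and 10.82 to 11.40 and 11.45 (0.60 ± 0.09), while itgb5 fell from 7.60 and 7.57 to 6.14 and 5.89 (-1.57 ± 0.15) and itgb4 from 7.25 and 7.17 to 6.40 and 6.47 (-0.78 ± 0.11). Of 21 integrin genes 3 rose and 3 fell (28.6%). tspan33a, a tetraspanin known from red cell precursors, changed by -1.72 ± 0.21 and plxnb2a.3, a plexin, by -2.44 ± 0.31. Of 97 ion channel genes 4 were called higher and 12 lower (16.5% called, median -0.08), of which 2 and 4 were kept without every single array, and 119 more were dim. cacnb1, a calcium channel subunit, rose from 6.75 and 6.79 to 7.85 and 8.02 (1.17 ± 0.16), and the sodium channel subunit scn4bb fell from 7.57 and 7.34 to 6.55 and 6.45 (-0.95 ± 0.15). kita, the receptor for stem cell factor, measured 9.15 and 9.24 against 9.91 and 10.00 (0.76 ± 0.10, adjusted p = 0.003).

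The next lists held a smaller share of calls than the background of 12.4%. In the list of 22 neutrophil markers limma called 0, while 2 had an unadjusted p under 0.05, with single changes between -0.71 and 0.31 and a median of 0.02, or -0.02 after centring on the genes tested. Of 19 subunits of the proton pump V-ATPase limma called 0, while 3 had an unadjusted p under 0.05, with changes between -0.26 and 0.41. Of 101 splicing factors 1 rose and 1 fell, and of 40 genes of microRNA processing and silencing mov10b.2 rose and ago2 was lower. ago2, the Argonaute that can slice its target, changed by -0.45 ± 0.11 (adjusted p = 0.0355), and its adjusted p was 0.087 to 0.18 whichever of the 4 arrays was left out. drosha, dicer1 and xpo5, which process and export microRNAs, were at 0.13, -0.09 and 0.23, with none called. Of 68 heat shock and DnaJ genes 2 rose and 2 fell, and of 44 genes of endoplasmic reticulum stress 1 rose and 2 fell.

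**Figure D3:**
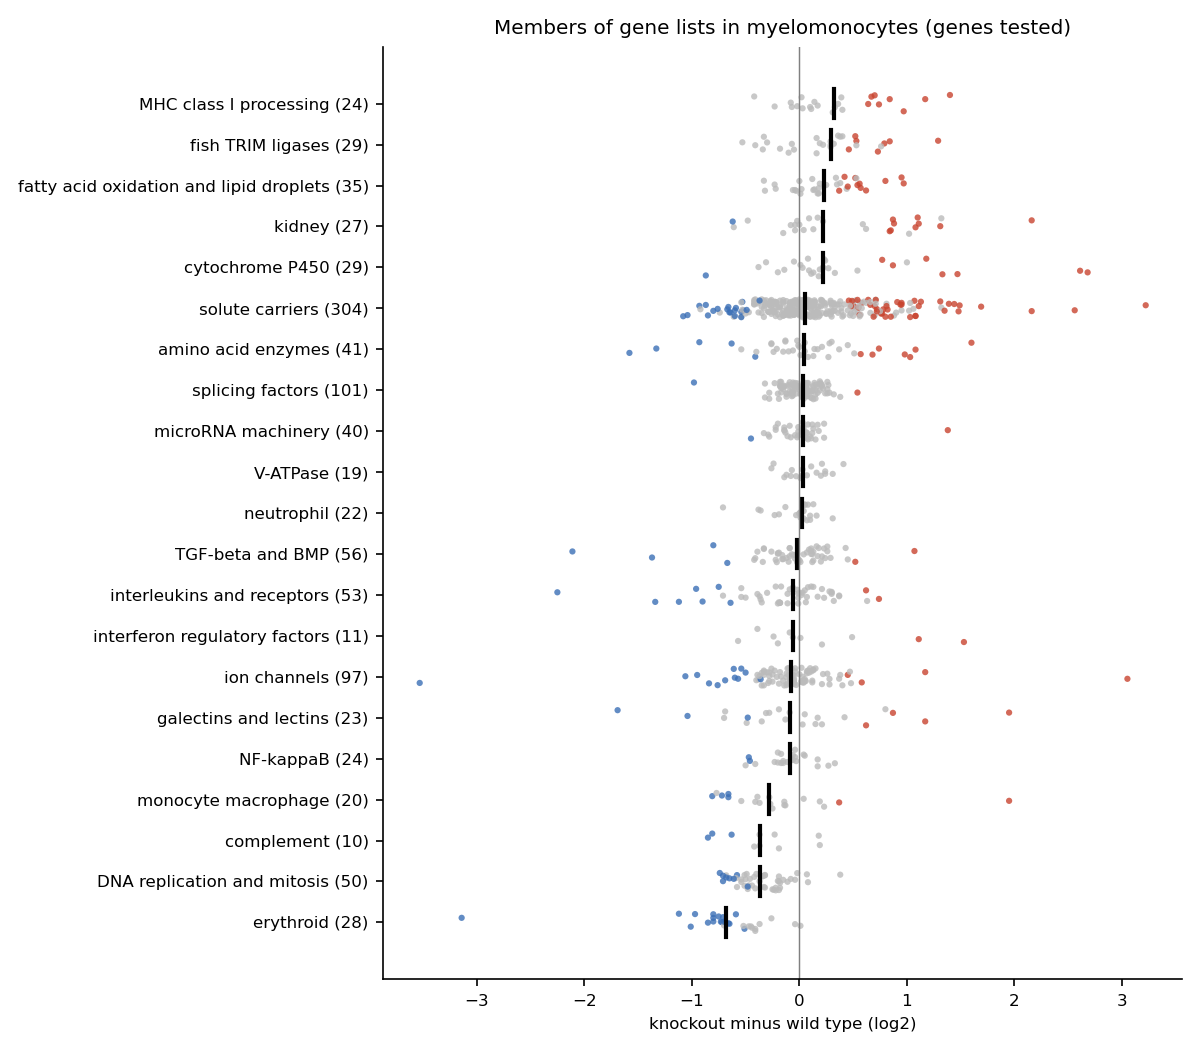
Change of every tested member of 21 gene lists in myelomonocytes. The horizontal axis is knockout minus wild type on the log2 scale, the number of genes tested is in brackets, red points were called higher, blue points called lower and grey points not called, and black bars are list medians. Medians run from -0.68 for erythroid genes to 0.32 for MHC class I processing.

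Red cell genes were lower in the knockout sort. Of 28 erythroid genes 0 rose and 17 fell (60.7%, median -0.68), and 27 lay below 0. The summed linear level of the list was 39561 and 45321 on the wild-type arrays and 26612 and 27723 on the knockout arrays. Over the 11 members not called it was 12698 and 14658 against 9741 and 10386. gypc, a glycophorin of the red cell membrane, measured 8.70 and 8.64 against 5.85 and 5.20, although a second, dimmer probe set changed by -0.14. slc4a1a, the anion exchanger, measured 11.99 and 12.14 against 11.25 and 11.18 and hemgn, a nuclear protein of red cell precursors, 11.42 and 11.47 against 10.77 and 10.70. The erythroid factors tal1, gfi1b and klf17 changed by -0.97, -1.04 and -1.06. Each of these genes was higher on both wild-type arrays, and slc4a1a and hemgn stayed far above the dim level on the knockout arrays. The list had 5 falls kept without every single array, and 7 fell without wild-type replicate 2. The globin gene hbaa2 measured 12.04 and 12.51 in wild type and 11.46 and 11.63 in the knockout, with an adjusted p of 0.0305 that became 0.142 without wild-type replicate 2, 0.115 without knockout replicate 1 and 0.0631 without knockout replicate 2. In whole marrow, which was sampled without erythrocytes, the median of the same list was 0.17.

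Genes of DNA replication and mitosis lay lower beside them. Of 50 genes 47 were below 0 and the median was -0.37, but 0 rose and 8 fell, and none of the 8 was kept without every single array. The number that fell was 0 without wild-type replicate 1 or wild-type replicate 2, 2 without knockout replicate 1 and 9 without knockout replicate 2. The summed linear level of the replication list was 15925 and 15031 in wild type and 11630 and 12367 in the knockout. Over the 42 members not called it was 13633 and 12723 against 10242 and 10813. Both this list and the erythroid list had lower sums on both knockout arrays. Between the lists the wild-type arrays stood in opposite order and the knockout arrays in the same order. The part of red cell precursors in the lower replication genes was not tested.

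Kidney genes were higher on 1 knockout array in particular. The summed linear level of 27 tubule and podocyte markers was 14373 and 16089 in wild type and 16646 and 21564 in the knockout. Over the 17 members not called it was 9906 and 11685 against 11320 and 14009, so the genotypes overlapped there but not over all 27. Of the 27 genes 9 rose and 1 fell (median 0.22). The rises numbered 10 without knockout replicate 1, 2 without knockout replicate 2, 2 without wild-type replicate 1 and 4 without wild-type replicate 2. slc5a12, a lactate carrier of the tubule, measured 6.76 and 7.24 against 8.03 and 8.60, and slc34a1b, a phosphate carrier, 6.28 and 6.37 against 7.17 and 7.69. Both were higher on knockout replicate 2 than on knockout replicate 1. The defining marker cdh17, a tubule cadherin, measured 10.23 and 10.65 against 10.51 and 10.71 and was not called. nphs1, nephrin of podocytes, was at 0.04. The part of kidney cells in the rises of solute carriers, cytochrome P450 and fatty acid oxidation genes was not tested. Of 24 endothelial markers 1 was called higher and 2 lower (12.5%, near the 12.4% over all genes, median -0.30). Of 20 monocyte and macrophage markers 2 were called higher and 4 lower (30%, median -0.28). The endothelial and the monocyte genes each had their lowest sum on knockout replicate 2. For the monocyte and macrophage list the sums were 22605 and 22173 in wild type and 21765 and 19587 in the knockout. Both knockout arrays were lower than both wild-type arrays, also over the 14 members not called (18888 and 18648 against 17777 and 15687). The endothelial sums were 8678 and 7657 against 8244 and 6699, so the genotypes overlapped. With 1 of the 4 arrays left out, the endothelial median ran from -0.54 without knockout replicate 1 to -0.05 without knockout replicate 2. The monocyte median moved less, from -0.30 without wild-type replicate 2 to -0.21 without knockout replicate 2.

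**Figure D4:**
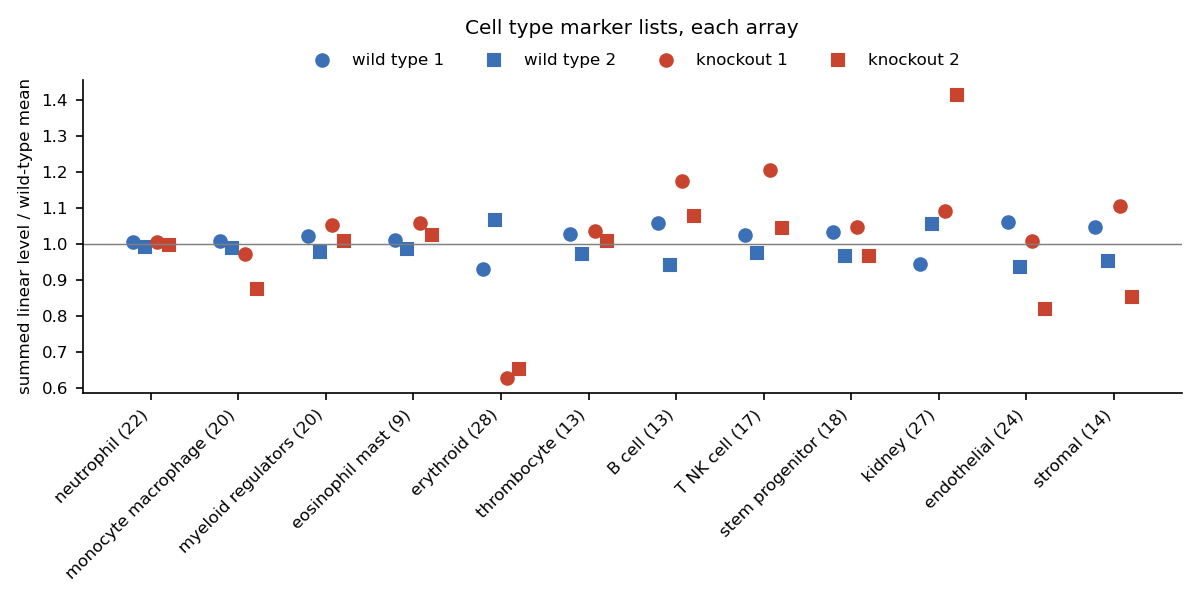
Summed linear level of each cell type's tested markers on the 4 myelomonocyte arrays, divided by the mean of the 2 wild-type arrays, with the number of markers in brackets. The neutrophil sums lie together, and knockout replicate 2 stands highest for kidney genes. Both knockout arrays lie below both wild-type arrays for erythroid genes and, by less, for monocyte and macrophage genes.

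The same genotypes in whole marrow gave 1278 calls (9.28% of 13774). Of the 1703 genes called in myelomonocytes 633 were called there too, which is 37.2% of the myelomonocyte calls and 49.5% of the marrow calls. Of the 633, 624 changed in the same direction in both. The comparisons share no arrays, but they share the estimate of error. Whole kidney marrow also holds cells of the myelomonocyte lineage, so the populations compared are not separate. The part of those cells in the marrow changes was not tested. Tested directly, the genotype difference differed between myelomonocytes and whole marrow at 38 genes, or 0.276% of those tested, of which 21 were called in myelomonocytes. With wild-type replicate 1 or wild-type replicate 2 left out only 1 gene passed that test.

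For some of those 21 genes the change in myelomonocytes was the larger. kcnk18 changed by -3.53 in myelomonocytes and -1.64 in whole marrow (adjusted p of the difference 0.0134), gabbr1a by -2.27 and -0.72 (0.027), unc119a1 by -2.0 and -0.53 (0.0439) and irs2a by -1.63 and -0.31 (0.0491). csrnp1a, a cysteine- and serine-rich nuclear protein, changed by -1.30 and 0.16 (0.0262), from 9.21 and 9.25 to 7.90 and 7.95 in the sorted cells. On the other side slco1f1 changed by 2.56 and 0.83 (0.0268), socs1b by 3.06 and 1.16 (0.0353), cd22 by 1.94 and 0.35 (0.0374) and lratd1 by 1.88 and 0.79 (0.0374). rdh8a, a retinal reductase, changed by 1.14 and -0.26 (0.0339) and ywhah, a 14-3-3 protein, by 0.77 and -0.25 (0.0359). Among red cell genes gypc and sptb, a spectrin, passed the test of the difference, with -3.14 and -0.90 (0.0472) and -1.12 and 0.22 (0.0382).

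Opposite directions with a call on each side were measured for 4 of the 21. tlr21 changed by 1.06 in myelomonocytes and -0.57 in whole marrow, with an adjusted p of the difference of 0.0268. anxa1a, an annexin that restrains neutrophils in mammals, measured 10.14 and 9.95 in wild-type myelomonocytes and 10.89 and 10.71 in knockout ones (0.76 ± 0.13), against -0.67 in whole marrow (difference 0.0349). il11b, an interleukin 6 family cytokine, changed by -1.34 and 1.86 (0.0349) and prdm8b by 0.50 and -0.59 (0.0403). In myelomonocytes anxa1a had an adjusted p of 0.0611 without wild-type replicate 2, and il11b and prdm8b had 0.0982 and 0.107 without wild-type replicate 1 and 0.0883 and 0.08 without knockout replicate 1. The call of il11b was also lost without knockout replicate 2 (0.061) and that of prdm8b without wild-type replicate 2 (0.0787). crlf2, a cytokine receptor chain, was the 1 gene of the 21 with more than a clone name whose rise was the smaller in myelomonocytes, at 0.62 against 1.85 (0.0268), and its own adjusted p was 0.0503 without wild-type replicate 1.

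**Figure D5:**
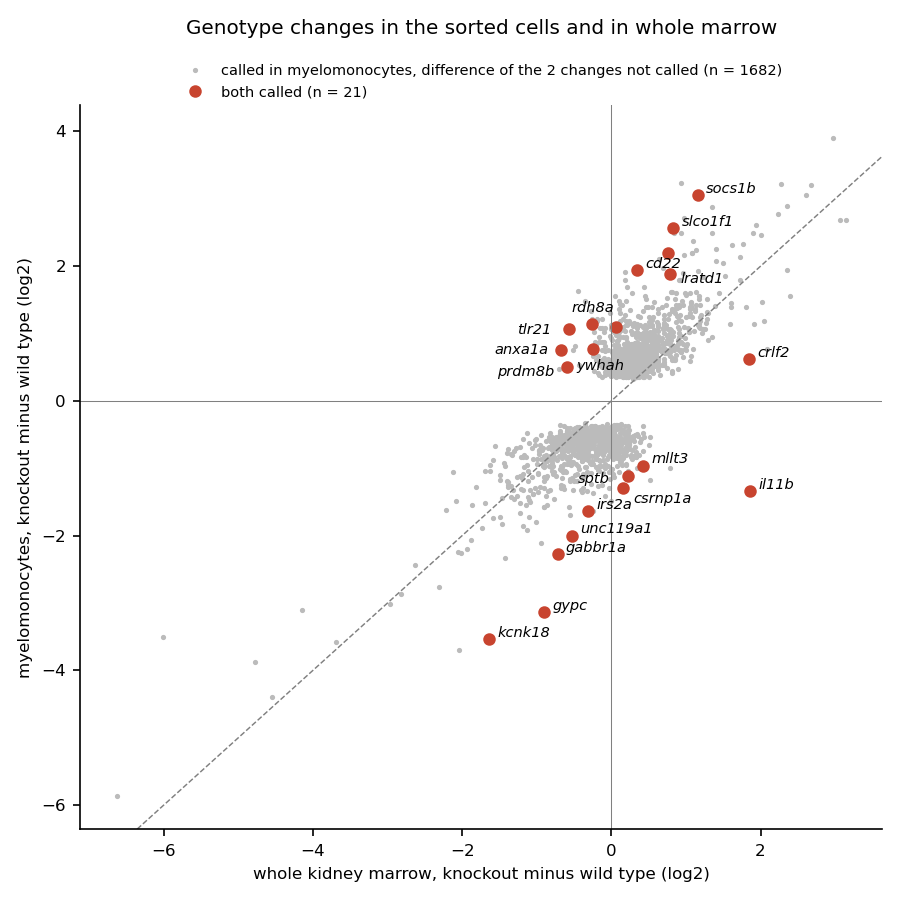
Genotype change in myelomonocytes (vertical) against that in whole kidney marrow (horizontal), both as knockout minus wild type on the log2 scale, for genes called in myelomonocytes. Red points are the 21 genes whose 2 changes differed in a direct test, grey points the other 1682, and the dashed line marks equal changes. Of the red points in the quadrants of opposite direction, tlr21, anxa1a, prdm8b and il11b were called in both cell populations.

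Genes beside an engineered locus are inherited with it, so the lost gene and linked variants cannot be told apart there. The 25 protein-coding genes on either side of each miR-142 gene were taken from the RefSeq gene order. Of 50 neighbours of mir142a 32 were tested, and 2 were higher and 4 lower (18.8% called). The nearest on one side, supt4h1, a transcription elongation factor subunit, measured 8.30 and 8.43 in wild type and 9.37 and 9.07 in the knockout (0.86 ± 0.13, adjusted p = 0.0063). The small heat shock gene hspb1, 4 genes away on the other side, measured 6.89 and 7.22 against 5.63 and 5.22 (-1.63 ± 0.19, adjusted p = 0.00222), and it is among the 30 largest falls. Of 50 neighbours of mir142b 25 were tested, and 8 were higher and 1 lower (36% called, against 12.4% over all genes and 9.11% to 16.8% over the 25 chromosomes). They included coq8b, an atypical kinase of coenzyme Q synthesis 21 genes away, from 7.61 and 7.45 to 8.90 and 8.92 (1.38 ± 0.10, adjusted p = 0.000302). p4ha3, 16 genes away on the same side, was another. The nearest gene on that side, which has only a clone name, changed by 1.80 ± 0.23 (adjusted p = 0.003), from a mean of 5.31 to 7.12.

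The largest changes that were not called rested on arrays that disagreed. stc1l, a stanniocalcin made by the glands that lie on the fish kidney, measured 10.32 and 6.54 in wild type and 11.20 and 11.44 in the knockout (2.89 ± 1.04, adjusted p = 0.114). nppal, a natriuretic peptide gene, measured 7.97 and 5.31 against 9.02 and 8.89 (2.31 ± 0.77, adjusted p = 0.0931). In both cases wild-type replicate 2 stood more than 2 log2 units below wild-type replicate 1. tnfrsf14, a TNF receptor family member, measured 7.97 and 8.24 against 7.81 and 5.14 (-1.63 ± 1.05, adjusted p = 0.365), with knockout replicate 2 apart from the other 3 arrays. The same split was present in whole marrow. There knockout replicate 2 again lay far below knockout replicate 1, at 8.16, and the wild-type arrays, at 7.79 and 8.34. The low value of tnfrsf14 was thus not limited to a single array. Whether the knockout samples numbered 2 share animals was not tested.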

How the data were processed

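Total RNA of sorted kidney cells was labelled with biotin from 200 ng for a 1-colour Affymetrix array, per the labels' protocols. The values deposited by the authors, 1 per array for each probe set, are taken as log2, a scale read from their range. The authors' background correction, summarisation and normalization, not given in the sources used here, were kept. No batch or scan date is named in those sources, and none was tested.

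Gene names came from the platform annotation, which can be old, and RefSeq (assembly GRCz12tu) was used for names and gene order. Of probe sets, 855 had several symbols and 53551 none here, and neither was used. The brightest probe set stood for each gene, and genes with a mean under the 50th percentile of all probe sets (5.52) were set aside. limma 3.58.1 in R 4.3.3 fitted a mean for each of the 4 groups to all 8 arrays (4 residual and 4 prior degrees of freedom). Two-sided p-values were given a Benjamini-Hochberg adjustment over 13774 genes. Errors of changes are standard errors of that fit. The number of arrays, 2 per group, limits the precision. The tests were tried on simulated data.

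The comparison, its 72 gene lists and the tests were chosen with earlier results of these data known, and the patterns of 3 lists were tightened on gene identity afterwards. Genes named were drawn from the 30 largest called changes each way where the arrays of the genotypes did not overlap, clone names passed over. They were also drawn from up to 4 called members of each list, defining markers and the 3 largest changes each way not called. Not every gene of these groups was described. For example, mhc2dgb, among the 30 largest falls, changed by -3.51 ± 0.47 (limma, adjusted p = 0.00352). Further list members were named where they complete a role or a paralogue pair, and waslb because it is a reported target. Neighbours of the deleted genes and genes that differ from marrow were chosen after their values were seen. No label says that equal replicate numbers share an animal or batch, so the samples were not paired. Deviations of the samples numbered 1 correlated at 0.405 between wild-type myelomonocytes and wild-type marrow, and at 0.267 between the knockout ones. Between the genotypes of the sort the correlation was 0.091, and over the other pairs of groups it was 0 to 0.116. Whether sort and marrow samples of equal number share animals or a batch was not tested. The test of the difference from marrow took them as independent. Alternatives covered the arrays in the fit, each array left out, a replicate block, normalization, filters, probe sets and the variance model. Promoter motifs and microRNA sequences were not analysed here.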

Additional observations from a re-analysis of the deposited data

Results flagged for a closer look

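For 18 of the genes named above, the genotype change in myelomonocytes differed from that in whole marrow in the test of the difference itself (limma, adjusted p under 0.05 over all genes). The difference, as the change in myelomonocytes minus the change in whole marrow on the log2 scale, was -1.89 for kcnk18, -1.56 for gabbr1a, -1.48 for unc119a1, -1.33 for irs2a and -1.46 for csrnp1a. For the red cell genes gypc and sptb it was -2.24 and -1.33. On the positive side it was 1.73 for slco1f1, 1.90 for socs1b, 1.59 for cd22, 1.09 for lratd1, 1.39 for rdh8a and 1.02 for ywhah. Changes of opposite direction gave 1.64 for tlr21, 1.43 for anxa1a, 1.1 for prdm8b and -3.20 for il11b. crlf2, which rose in both, gave -1.23. Only 1 gene in all passed this test without wild-type replicate 1, and likewise without wild-type replicate 2.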

How the results depend on the processing

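The number of genes called in myelomonocytes, 1703, was 1108 in a fit of only the 4 arrays compared and 643 with the adjustment over every probe set. It ran from 719 to 1280 when 1 of those arrays was left out, with the remaining sample of that group assumed to vary like the other groups. With the replicate block, which has no basis in the labels beyond the number, it was 2073. The number of genes whose change differed from whole marrow, 38, ran from 1 to 25 with 1 array left out. It was 77 with the replicate block, 24 after quantile normalization, 94 with a trend in eBayes and 2 over every probe set, and the fit of 4 arrays cannot give it. The other alternatives moved neither count by over 1.5 times. The share of calls that were higher, 55.4%, was 46.5% after centring on the median of the genes tested, an alternative chosen after seeing the data, and 49% and 63.2% without knockout replicates 1 and 2. No named gene with a call changed direction under any alternative. Of the named genes, 13 lost their call over every probe set, 6 in the fit of 4 arrays, 5 with array weights, 3 with no filter, and 1 each after quantile normalization and after either centring. The motif search in promoters was not run. With 2 arrays a group and an unstated normalization, small changes are the least certain, and changes that reach into dim groups may be compressed.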

Other observations

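Further called genes of the sort, not named above, had the following values. Among them dnajc21 and hspa12b belong to the heat shock list and rbm24a to the list of splicing factors. lepr, the leptin receptor gene, rose from 7.28 and 6.80 to 8.39 and 8.41 (1.36 ± 0.17, adjusted p = 0.00277), and dnajc21, a J-domain protein of ribosome assembly, from 7.80 and 7.54 to 8.70 and 8.80 (1.08 ± 0.17, adjusted p = 0.00704). rbm24a, an RNA-binding protein of splicing, fell from 9.54 and 9.47 to 8.66 and 8.40 (-0.98 ± 0.12, adjusted p = 0.00271), and hspa12b, an atypical Hsp70, from 9.01 and 8.87 to 8.02 and 7.60 (-1.13 ± 0.16, adjusted p = 0.00429). All 4 kept their call without every single array. akt1s1, a brake on the mTOR complex, rose by 0.90 ± 0.14, and lgr4, an R-spondin receptor of the Wnt pathway, by 0.84, both also kept.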
